A study of Homo sapiens with 6 samples.

Results

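The genes described here encode the sarcomere, the contractile unit of striated muscle, and the proteins that trigger, fuel and maintain contraction. The list holds 51 genes, chosen by name, out of 20046 genes with a named probe on the array. All samples were Rh30 cells, an established human line of alveolar rhabdomyosarcoma, a childhood tumour of muscle lineage, in which the PAX3-FOXO1 fusion is present. In the siP/CAF group, 3 samples received an siRNA against P/CAF, the acetyltransferase and coactivator encoded by KAT2B. In the control group, 3 samples received a scrambled control siRNA. Both groups were transfected, and total RNA was taken after 72 h and read on 1 Illumina bead array per sample. The design asked how P/CAF bears on genes of muscle development, among other themes.

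In the sarcomere, thin filaments of actin, tropomyosin and troponin slide along thick filaments of myosin. Calcium released from the sarcoplasmic reticulum binds troponin and lets myosin engage actin, while Z-disc proteins and titin hold the lattice together. Many of these genes are switched on during terminal muscle differentiation by MYOD1, myogenin and MEF2 factors, and rhabdomyosarcoma cells express some of them although they keep dividing. P/CAF is known as a coactivator and acetylating enzyme of MYOD1.

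Between 20891 and 21421 of 47323 probes were detected per array, and over tested probes the correlation between arrays was 0.988 to 0.994 within siP/CAF and 0.981 to 0.992 within control siRNA. The siRNA lowered its target: KAT2B measured 6.93, 6.85 and 6.39 on the siP/CAF arrays and 9.21, 9.37 and 9.90 on the control arrays (normalized log2 intensity), a log2 difference of -2.77 (limma, Benjamini-Hochberg adjusted p = 1.91e-04). All levels below are on this normalized log2 scale unless called signals or sums, and differences are siP/CAF minus control. A level also depends on the probe, so genes are not ranked by level.

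Rh30 cells expressed part of the contractile programme. Of the 51 genes, 48 had a named probe and 23 had a probe detected on at least 3 of the 6 arrays, which was the condition for testing; 20 of these were detected on all 6. For TPM3, TNNT2 and MYLPF no named probe was used here. The number of the 51 genes detected per array was 22 to 24 after siP/CAF and 22 to 24 in the controls. Of genes classed here as embryonic or perinatal, 4 of 6 were tested. They were the cardiac actin ACTC1, embryonic myosin heavy chain MYH3, the light chain MYL4 of embryonic and atrial muscle, and MYL6B, whose place in this class is doubtful. Of genes classed as fast skeletal 3 of 12 were tested, and of those classed as slow or cardiac 4 of 11.

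None of the 6 arrays detected 19 of the genes. These included the adult heavy chains MYH1 and MYH2, the perinatal heavy chain MYH8, the regulatory and essential ventricular light chains MYL2 and MYL3, and cardiac troponin I (TNNI3). The muscle creatine kinases CKM and CKMT2 and the oxygen store myoglobin (MB), which make up the energy and oxygen group, were also undetected throughout. So were the calcium stores CASQ1 and CASQ2, the fast calcium pump ATP2A1, the Z-disc genes ACTN3, TCAP, MYOZ2, MYOT and CSRP3, the troponin gene TNNT3 and the myosin methyltransferase SMYD1. Probes of TNNC2 passed detection on 2 siP/CAF arrays and 0 control arrays, MYH7 and the myosin chaperone UNC45B on 1 siP/CAF array each, and TNNI2, MYBPC1 and titin (TTN) on 1 control array each. Single readings past the detection threshold of 0.05 also arise from probes without signal. The myosin heavy chain genes are related in sequence, and whether each probe reads only its own gene was not checked.

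**Figure D1:**
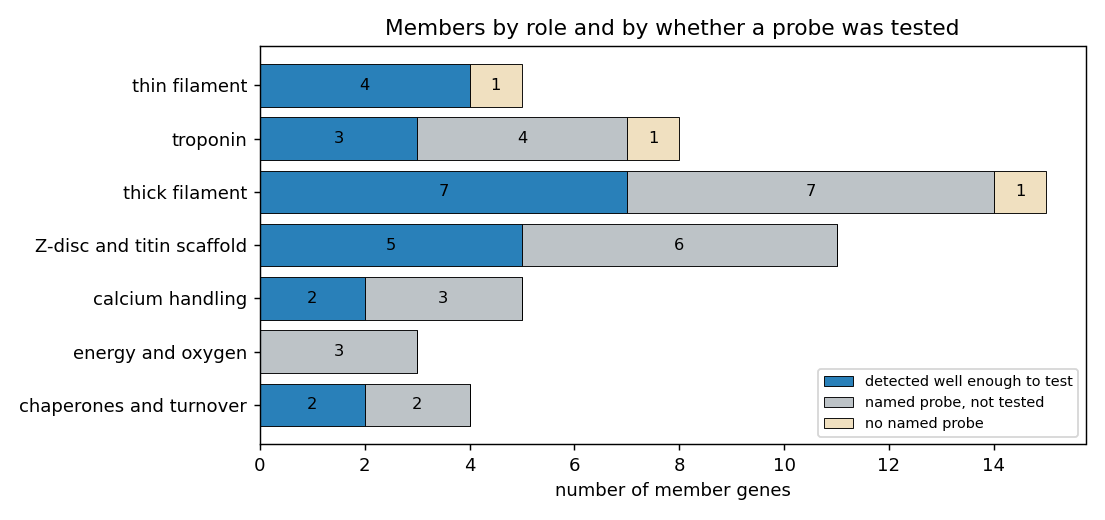
Number of the 51 genes in each role (bars, axis in genes) that were tested, had a named probe but were not tested, or had no named probe. The thin filament had 4 of 5 genes tested, the thick filament 7 of 15 and the energy and oxygen group 0 of 3.

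After siP/CAF, 2 of the 23 tested genes fell and none rose. They were MYLK2, the kinase that phosphorylates myosin light chains in skeletal muscle, and TNNI1, the slow skeletal form of the inhibitory troponin subunit. Over all 11806 tested genes 3.09% fell and 2.28% rose (limma, Benjamini-Hochberg adjusted p under 0.05), so the share of members that fell, 8.70%, rests on 2 genes. Without adjustment, 2 members lay higher and 5 lower at a limma p under 0.05, which is 30.4% of those tested against 20.6% of all genes. The arrays of the groups did not overlap for 7 of the 23, 30.4%, and for 27.7% of all tested genes, so that share was near the background. Of the 7, 2 lay higher and 5 lower, beside 12.6% and 15.1% of all tested genes. The 5 include ATP2A2, whose groups barely separated and whose other probes lay higher. The median difference was -0.16 over the 23 genes, also -0.16 over the 20 detected on every array, and -0.01 over all tested genes. It depended on single arrays, at -0.060 without control array 2, -0.063 without siP/CAF array 1, and -0.082 without either siP/CAF array 3 or control array 1.

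**Figure D2:**
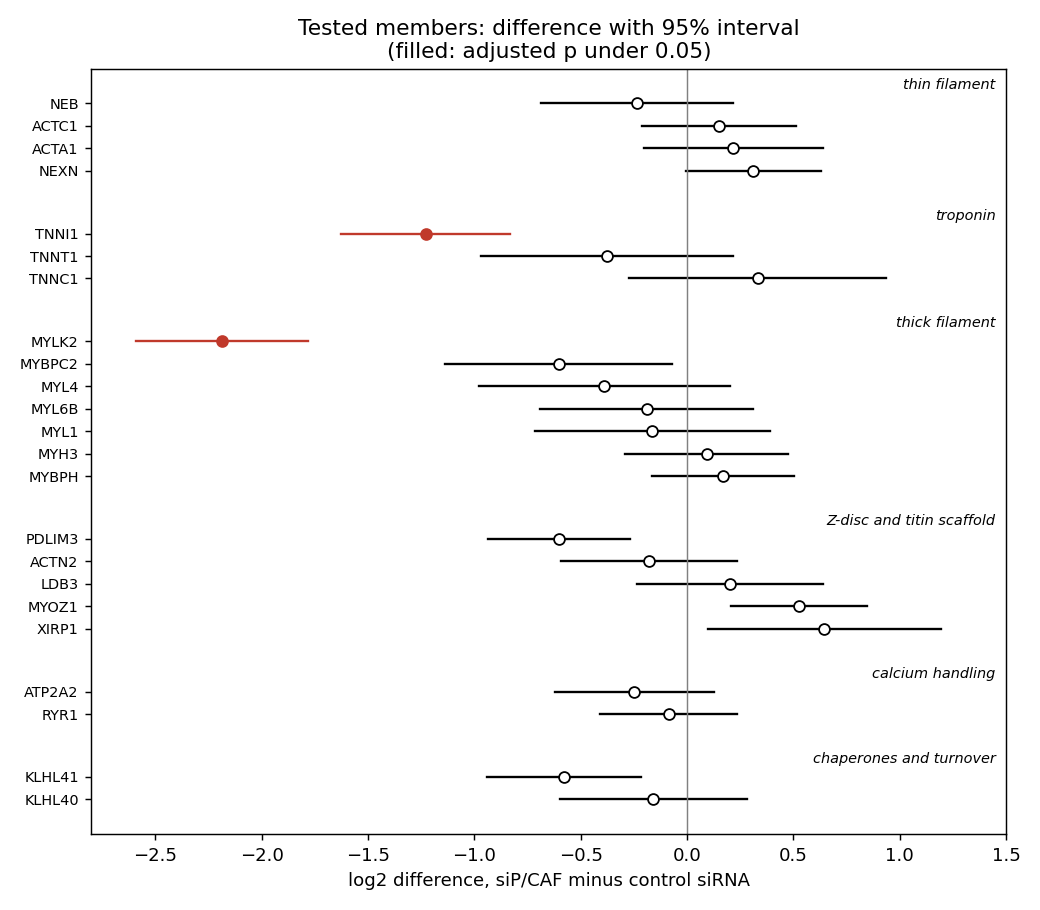
Log2 difference, siP/CAF minus control siRNA, of the 23 tested genes (points) with 95% intervals (lines), grouped by role. Only the filled points, MYLK2 at -2.19 and TNNI1 at -1.23, passed the adjusted threshold.

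MYLK2 had the deepest fall among the tested members. Its probe (ILMN_2050183) measured 7.57, 7.92 and 7.63 on the siP/CAF arrays, against 9.78, 9.70 and 10.19 on the control arrays. Every siP/CAF array lay far below every control array. The signals before any correction were 245, 299 and 239 after siP/CAF and 1086, 750 and 1320 in the controls. The mean was 7.71 ± 0.19 after siP/CAF and 9.89 ± 0.26 in the controls (SD, n = 3 each), and MYLK2 fell by 2.19 on the log2 scale, a 4.55-fold lower level (SE 0.18; limma, Benjamini-Hochberg adjusted p = 2.60e-04). This call held under all 15 alternatives computed for MYLK2, with differences between -2.29 and -1.86.

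TNNI1 (ILMN_1690050) measured 6.25, 6.78 and 6.26 after siP/CAF and 7.73, 7.58 and 7.67 in the controls. The groups did not overlap, and siP/CAF array 2 was nearest to the controls. Before correction the signals were 134, 166 and 130 after siP/CAF and 301, 214 and 284 in the controls. TNNI1 averaged 6.43 ± 0.30 after siP/CAF and 7.66 ± 0.07 in the controls (SD, n = 3 each), a 2.34-fold lower level (log2 difference -1.23, SE 0.18; limma, Benjamini-Hochberg adjusted p = 0.00588). The call held under all 15 alternatives for TNNI1. Its size depended on the background correction, since the probe is dim: without correction the difference was -0.79. Fewer transcripts per cell and fewer cells that hold the transcript cannot be told apart in such bulk samples, here and for every gene below.

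The partners of TNNI1 in the troponin complex did not pass. The calcium-binding subunit TNNC1 of slow and cardiac muscle measured 7.52, 7.47 and 8.15 after siP/CAF and 7.43, 7.87 and 6.85 in the controls. Its difference was 0.33 with a 95% interval of -0.27 to 0.94. TNNT1, the slow subunit that ties troponin to tropomyosin, measured 10.25, 10.10 and 10.67 after siP/CAF and 11.09, 10.97 and 10.09 in the controls. Its difference was -0.38 with an interval of -0.97 to 0.21 that includes 0.

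Thick filament genes other than MYLK2 also stayed short of the threshold. MYBPC2, the fast form of myosin-binding protein C, measured 5.76, 5.23 and 4.88 after siP/CAF and 5.61, 5.88 and 6.20 in the controls (difference -0.60; limma, Benjamini-Hochberg adjusted p = 0.202). The groups overlapped through siP/CAF array 1, and 2 of the 3 siP/CAF arrays detected the probe. The MYBPC2 difference was -0.25 without background correction, -0.29 in the series matrix, -0.26 with array weights and -0.40 without siP/CAF array 3. It was larger without siP/CAF array 1 (-0.84) and without control array 1 (-0.75). None of the 14 alternatives computed for MYBPC2 passed the threshold. The heavy chain MYH3 differed by 0.09 (interval -0.29 to 0.48) and the myosin-binding protein H gene MYBPH by 0.17 (-0.17 to 0.50). The essential light chains MYL1, MYL4 and MYL6B, which stabilise the lever arm of myosin, differed by -0.16, -0.39 and -0.19. A dimmer MYL4 probe measured -0.70 (limma, Benjamini-Hochberg adjusted p = 0.201), and dimmer MYL1 probes 0.08 and 0.16.

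The 3 tested light chains and 2 of the 3 tested troponins, TNNC1 and TNNT1 but not TNNI1, shared a pattern across arrays that the group means hide. In MYL4, siP/CAF arrays 1 to 3 measured 10.03, 10.11 and 10.63, and control arrays 1 to 3 measured 10.82, 11.06 and 10.06. The third siP/CAF array was the highest of its group, and the third control array was the lowest of its own and level with the siP/CAF arrays. The same order of the third arrays was seen in MYL1, MYL6B, TNNC1, TNNT1, ACTA1 and ACTN2, so in 7 of the 23 genes (30.4%), beside 21.7% of all tested genes. NEB, NEXN, MYH3, MYBPC2, XIRP1 and ATP2A2 had the opposite order, with the third siP/CAF array lowest and the third control array highest. Over all tested genes the third siP/CAF array was lowest of its group in 47.6%, and the third control array highest of its own in 50.3%. The third arrays thus deviated in both directions and beyond these genes. In MYL1, MYL4, MYL6B, TNNC1 and TNNT1 the third control array lay 0.65 to 0.94 below the mean of the other controls, and the third siP/CAF array 0.41 to 0.66 above the mean of the other siP/CAF arrays. The numbers only name samples, and the third siP/CAF label carries none. These genes were grouped after their values were seen.

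**Figure D3:**
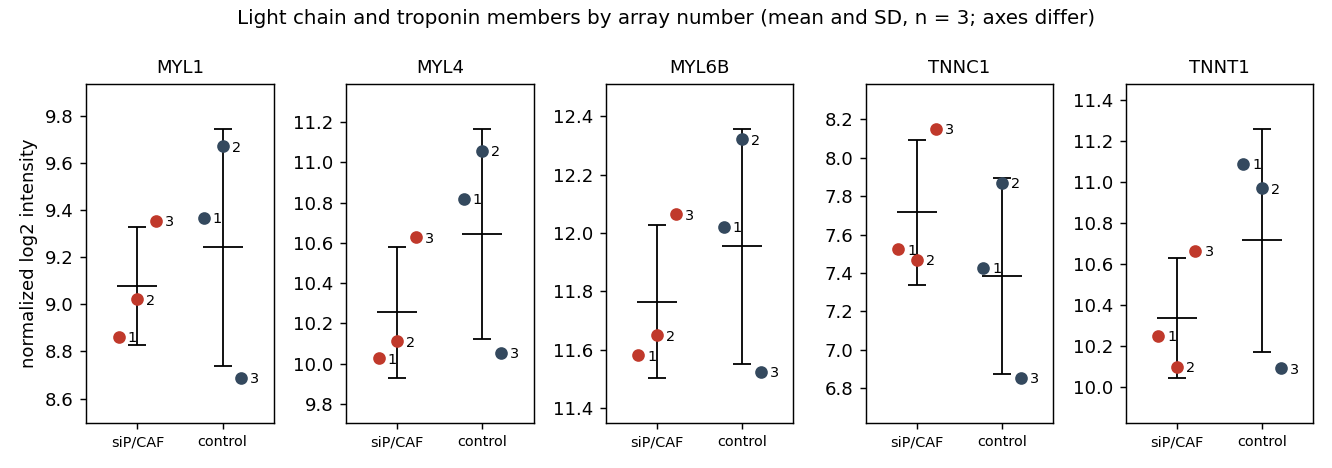
Normalized log2 intensity of 5 light chain and troponin genes on each siP/CAF array (left) and control array (right), numbered by array, with mean and SD (n = 3) and a separate axis for each gene. Control array 3 is the lowest control in all 5, at 10.06 for MYL4, and siP/CAF array 3 the highest of its group, at 10.63.

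Leaving out the third array of both groups, a choice made after seeing the data, gave MYL4 a difference of -0.87 and TNNT1 one of -0.85, both past the threshold (limma, Benjamini-Hochberg adjusted p = 0.0332 and 0.0316). With 4 arrays the count of members that fell was then 4, beside 2 with all arrays. Changed probes over the whole table also became more, 1241 beside 972 of the 21232 tested. Without control array 3 alone the differences were -0.68 and -0.69, short of the threshold (adjusted p = 0.103 and 0.0797 in limma). MYL4 measured -0.18 without control array 2 and TNNT1 -0.19 without control array 1. Without the third arrays TNNC1 measured -0.15, ACTA1 -0.02, NEB 0.06 and KLHL40 0.03, so the directions of these 4 depended on them. MYL1 also changed direction without control array 2 (0.05), and MYH3 without siP/CAF array 2 (-0.04). What set the third arrays apart was not tested.

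Z-disc and scaffold genes lay on both sides. PDLIM3, a PDZ and LIM protein that binds alpha-actinin at the Z-disc, measured 11.04, 11.32 and 11.26 after siP/CAF and 11.75, 11.88 and 11.80 in the controls. All siP/CAF arrays were lower, with a difference of -0.60 (interval -0.94 to -0.27; limma, Benjamini-Hochberg adjusted p = 0.0530). Its second probe measured -0.63 (limma, Benjamini-Hochberg adjusted p = 0.0552). PDLIM3 thus missed the threshold narrowly on both probes, and passed it in 5 of 15 alternatives with differences between -0.66 and -0.52 (limma, Benjamini-Hochberg adjusted p 0.0138 to 0.240).

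MYOZ1, the fast-fibre myozenin that links alpha-actinin and calcineurin, measured 5.73, 5.91 and 5.79 after siP/CAF and 5.34, 5.29 and 5.22 in the controls. Every siP/CAF array was higher, by 0.53 on average (interval 0.21 to 0.85; limma, Benjamini-Hochberg adjusted p = 0.0705). The probe was dim, and without background correction the difference was 0.21. XIRP1, an actin-binding protein of the attachment sites of myofibrils, measured 7.91, 7.72 and 7.43 after siP/CAF and 7.11, 6.52 and 7.51 in the controls. Control array 3 overlapped the siP/CAF arrays, and the difference of 0.65 missed the threshold (adjusted p = 0.181 in limma). It was 0.38 without control array 2 and 1.01 without the third arrays of both groups. The muscle alpha-actinin ACTN2 (-0.18) and LDB3, known as cypher (0.20), were each detected on 3 of 6 arrays.

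Among thin filament genes no difference passed. ACTC1, the actin of cardiac and embryonic skeletal muscle, measured 14.99, 14.87 and 14.79 after siP/CAF and 14.93, 14.52 and 14.75 in the controls. These ranges overlapped, and the difference was 0.15 with an interval of -0.21 to 0.51. ACTA1, the adult skeletal actin, differed by 0.22 (-0.20 to 0.64), and nebulin (NEB), the ruler of thin filament length, by -0.24 (-0.69 to 0.22). NEXN, the actin-binding protein nexilin, measured 11.61, 11.66 and 11.54 after siP/CAF and 11.32, 11.22 and 11.34 in the controls. Its arrays did not overlap, but the difference of 0.31 did not pass (interval -0.00 to 0.63; limma, Benjamini-Hochberg adjusted p = 0.270).

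KLHL41 and KLHL40 encode kelch proteins that stabilise sarcomere components, among them nebulin. On its brighter probe KLHL41 measured 10.82, 10.67 and 10.41 after siP/CAF and 11.33, 11.12 and 11.19 in the controls, a difference of -0.58 (limma, Benjamini-Hochberg adjusted p = 0.0782). On its dimmer probe (ILMN_2218604) it measured 10.12, 10.09 and 9.79 after siP/CAF and 10.62, 10.60 and 10.89 in the controls. The groups did not overlap on either probe. The dimmer probe fell by 0.71 with all arrays (limma, Benjamini-Hochberg adjusted p = 0.0410, with 4.58% of all tested probes called). When 1 array was omitted the difference lay between -0.77 and -0.60, and none of the 6 fits passed (limma, Benjamini-Hochberg adjusted p 0.0649 to 0.129). KLHL40 differed by -0.16 (interval -0.60 to 0.28).

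**Figure D4:**
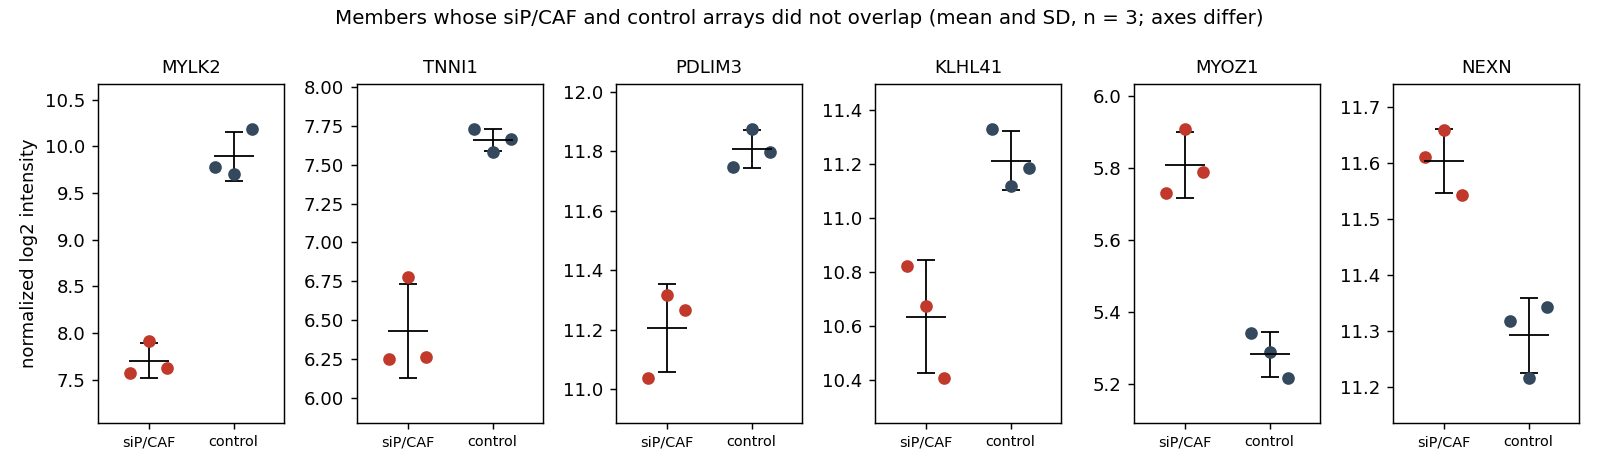
Normalized log2 intensity of 6 of the 7 genes whose arrays did not overlap (ATP2A2 is given in the text), for siP/CAF (left) and control siRNA (right), with mean and SD (n = 3) and a separate axis for each gene. MYLK2, TNNI1, PDLIM3 and KLHL41 were lower after siP/CAF, and MYOZ1 and NEXN were higher.

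In calcium handling, the release channel RYR1 differed by -0.09 (interval -0.41 to 0.24). ATP2A2, the SERCA2 calcium pump of slow and cardiac muscle, which also serves the endoplasmic reticulum of other cells, had probes that disagreed. Its brightest probe (ILMN_1687375) measured 11.42, 11.47 and 11.31 after siP/CAF and 11.54, 11.47 and 11.93 in the controls, a difference of -0.25 (limma, Benjamini-Hochberg adjusted p = 0.491). The groups on this probe barely separated, at 11.4671 on siP/CAF array 2 against 11.4715 on control array 2. Another (ILMN_1655884), which the platform annotation assigns to a different RefSeq transcript, measured 10.55, 10.48 and 10.37 after siP/CAF and 9.91, 9.83 and 10.16 in the controls. All siP/CAF arrays were higher there, by 0.50 (limma, Benjamini-Hochberg adjusted p = 0.104). The third probe (ILMN_1815666), assigned to the same transcript as the second, differed by 0.27.

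Taken within each array, the second ATP2A2 probe minus the brightest gave -0.88, -0.99 and -0.94 after siP/CAF, against -1.63, -1.64 and -1.77 in the controls. The shift between the groups was 0.75, larger than the spread within either group (SD 0.06 and 0.08), and the third probe minus the brightest shifted by 0.52. With 3 arrays against 3 the two-sided exact permutation p was 0.1 for each, the smallest this design can give, and the comparison was chosen after the values were seen. Which part of the transcripts each probe reads was not checked.

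Promoters, taken as 250 bases before to 50 after the start of a gene, were available from RefSeq (GRCh38.p14) for 35 of the 51 genes. Promoters are shown for the 3 genes among the 35 whose arrays did not overlap and whose unadjusted limma p was under 0.05, because they show both directions. All 3 genes missed the adjusted threshold on their brightest probe. The promoters of MYLK2 and TNNI1, the members that fell, were not among the 35. Capitals mark E-boxes, the letters CANNTG searched on both strands, which are the core letters bound by MYOD1 and myogenin. The KLHL41 promoter lies at chr2:169509452-169509751 on the plus strand, PDLIM3 at chr4:185535458-185535757 on the minus strand and MYOZ1 at chr10:73641425-73641724 on the minus strand.
KLHL41: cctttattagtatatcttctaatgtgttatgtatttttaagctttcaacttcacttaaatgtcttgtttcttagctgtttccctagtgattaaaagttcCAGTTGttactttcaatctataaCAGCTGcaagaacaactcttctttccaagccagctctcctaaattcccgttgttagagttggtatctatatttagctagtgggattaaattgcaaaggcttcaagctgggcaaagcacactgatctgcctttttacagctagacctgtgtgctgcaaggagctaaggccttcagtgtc
PDLIM3: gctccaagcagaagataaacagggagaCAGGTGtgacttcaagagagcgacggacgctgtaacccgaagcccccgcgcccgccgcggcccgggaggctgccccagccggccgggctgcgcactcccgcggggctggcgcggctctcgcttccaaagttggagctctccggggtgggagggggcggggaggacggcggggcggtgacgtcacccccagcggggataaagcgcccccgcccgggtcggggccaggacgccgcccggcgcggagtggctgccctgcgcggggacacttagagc
MYOZ1: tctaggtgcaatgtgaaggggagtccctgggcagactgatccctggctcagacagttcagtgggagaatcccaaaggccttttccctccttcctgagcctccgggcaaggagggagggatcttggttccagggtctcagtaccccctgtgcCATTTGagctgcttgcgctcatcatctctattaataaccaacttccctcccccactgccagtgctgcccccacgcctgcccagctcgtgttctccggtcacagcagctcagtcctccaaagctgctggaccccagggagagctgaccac

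KLHL41, which lay lower, held 2 E-boxes, 1 of them CAGCTG, and a match to the MEF2 site. MYOZ1, which lay higher, held 1 E-box and a MEF2 match, and PDLIM3, which lay lower, held 1 E-box and no MEF2 match in this window. Over the 35 promoters 85.7% held an E-box, beside 68.9% of 27305 RefSeq promoters of the same length. For CAGCTG, a subset of E-boxes, the shares were 42.9% and 17.7%, for the MEF2 site 28.6% and 3.09%, and for the CArG box, the site of serum response factor, 8.57% and 1.29%. The CArG matches were in ACTA1, ACTC1 and LDB3. A match describes letters and not binding.

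Of 16 myogenic regulators, 14 were tested, and 2 fell and 0 rose in limma (14.3%, beside 5.37% of all tested genes changed). An unadjusted limma p under 0.05 was found for 7 of the 14, beside 20.6% of all tested genes, and the median difference over the 14 was -0.44. The list mixes activators with the inhibitors ID1, ID2 and ID3, which measured -0.68, -0.33 and -0.68. ID1 and ID3 were among the 7, so these counts do not describe activators alone. Myogenin (MYOG), the factor of terminal differentiation, measured 10.23, 10.09 and 9.97 after siP/CAF and 11.99, 11.64 and 11.66 in the controls, and fell by 1.67 (limma, Benjamini-Hochberg adjusted p = 6.88e-04). MYOD1 (-0.50) and MEF2C (-0.75) missed the threshold (adjusted p = 0.102 and 0.0544 in limma), although their arrays did not overlap. The other fall was of TCF3, the E-protein partner of MYOD1 (-1.10, adjusted p = 0.0116 in limma). Whether these values differ from those of the contractile genes was not tested.

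Other muscle contraction genes, a list of 79 outside the 51, showed changes in both directions. Of 43 tested, 4 rose and 1 fell (11.6%, beside the same 5.37%). MYPN, which encodes the Z-disc protein myopalladin, rose by 0.91, measuring 7.95, 8.03 and 8.14 after siP/CAF and 7.04, 7.01 and 7.34 in the controls (limma, Benjamini-Hochberg adjusted p = 0.0128). Its dimmer probe measured 0.65 and did not pass. STAC3, an adaptor that couples the voltage sensor to the release channel, fell by 0.78 (limma, Benjamini-Hochberg adjusted p = 0.0211). The tropomyosin genes TPM1 (0.86) and TPM2 (0.76), shared with smooth muscle and the cytoskeleton, and the sarcoglycan gene SGCA (0.96) made up the other rises. The other tested TPM1 probes passed too, while those of TPM2 (0.74 and 0.17) did not. These counts use the brightest probe of each gene. JPH2 (0.81) and TMOD3 (1.04) passed only on a dimmer probe (limma, Benjamini-Hochberg adjusted p = 0.0174 and 0.0401). That TMOD3 probe was detected on 3 siP/CAF arrays and 0 control arrays. It was thus tested only through the group where it lay higher, and its call lends no support. The brighter TMOD3 probe measured 0.36 and did not pass. The intermediate filament gene DES, desmin, measured -0.22 and did not pass. The median over the 43 was -0.03.

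Markers of smooth muscle moved with siP/CAF as well. Of 8 such genes 6 were tested and 4 rose, namely TAGLN (2.91), ACTG2 (2.54), ACTA2 (1.87) and CNN1 (0.93), while MYH11 and LMOD1 were detected on no array. The summed signal of the 8 lay between 6315 and 6966 after siP/CAF and between 1505 and 1970 in the controls. Sums here are of signals before correction and normalization, so bright genes dominate them. Of 7 cardiac markers with a probe, 3 were tested and 1, NPPB, rose (1.10), with MYH6, MYL7 and PLN undetected. Of 8 fibroblast markers 4 were tested and 0 changed in limma, with sums of 3390 to 3686 after siP/CAF and 2760 to 3975 in the controls. An unadjusted limma p under 0.05 was found for 2, in opposite directions: THY1 (0.47) and COL1A2 (-0.53). COL1A2 was detected on 3 control arrays and 0 siP/CAF arrays, so it was tested only through the group where it lay higher. Of 10 skeletal lineage markers 8 were tested and MYOG alone passed, with 4 at an unadjusted limma p under 0.05, a median of -0.36, and sums of 20347 to 23965 after siP/CAF and 24686 to 36328 in the controls. Over all tested genes 2.28% rose and 3.09% fell at the adjusted limma threshold, and 20.6% had an unadjusted limma p under 0.05. These marker lists were chosen with earlier results of the data known. The part of these markers in the results above was not tested.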

How the data were processed

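The members and gene lists were chosen with earlier results of these data known. Per the labels' protocols, total RNA was amplified and labelled for 1-colour Illumina HT-12 arrays. The deposited non-normalized table gives, per the file headers, a linear bead intensity for each probe and array. Beside it the authors deposited a score headed as a p value. Since this score rises with the signal, 1 minus it was taken as the detection p. The deposited series matrix holds log2 values with column medians of 0, and correlated with the centred log2 signals at 0.933 to 0.970. How it was normalized is not stated in the sources used here, so it served only as an alternative.

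Background was corrected by normexp using the detection p-values, 16 was added to each value, and quantile normalization and log2 followed (limma 3.58.1 under R 4.3.3). A probe was tested when its detection p was under 0.05 on 3 or more of the 6 arrays. The test was limma (lmFit, eBayes), siP/CAF minus control siRNA, with Benjamini-Hochberg adjustment across the 21232 tested probes. Probe names came from the platform annotation. For each gene the tested probe with the highest mean normalized value was used. Named are members past the threshold of 0.05 on any tested probe and the 2 tested members of each role with the smallest p; others were named after their values were seen. The procedure was tested on simulated data. The alternatives varied background correction, offset, between-array scaling, filter, array weights, probe choice, replicate block and single arrays. Promoter sequences are RefSeq's on GRCh38.p14. The array tables name no genome build, so no probe coordinates are given. The number of arrays limits the precision. Nothing in the labels says that samples of a group were separate cultures, and p-values then cover only the spread among these samples, which may be technical.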

Additional observations from a re-analysis of the deposited data

How the results depend on the processing

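MYLK2, TNNI1 and KAT2B kept their direction and passed the threshold under every alternative computed for them, and no called value changed sign. The count of members that fell, 2, was 4 without background correction, with an offset of 50, with the series matrix values and with the mean of all tested probes per gene (PDLIM3 and KLHL41 joined in each), 3 with detection required at p under 0.01 on all arrays (PDLIM3 joined), 6 with array weights, and 2 to 2 when 1 array was left out. The count of members that rose, 0, was 2 with array weights (MYOZ1 and XIRP1), 1 with the mean of probes (MYOZ1), and 0 to 0 when 1 array was left out. The median over tested members, -0.16, was -0.086 without background correction, -0.11 with an offset of 50, -0.22 with median scaling, -0.051 with no filter, -0.09 with the matrix values, -0.055 with the mean of probes, and -0.13 to -0.060 when 1 array was left out. The 972 changed probes became 2865 with array weights and 301 to 1084 when 1 array was left out. Array weights gave control array 3 the lowest weight, 0.29. The cause of these shifts was not tested.

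The labels share the numbers 1 and 2 between groups but do not say what they mark. Deviations of same-numbered arrays correlated at -0.15 and -0.41, and those of the third arrays at -0.56. The 3 deviations of a group are not independent, so these values cannot show whether same-numbered samples belong together. With the replicate block on the 4 arrays numbered 1 and 2, 4 members fell (MYL4 and TNNT1 joined), 1 rose (XIRP1) and 688 probes changed. Without the block on the same arrays, 4 fell, 0 rose and 1241 probes changed. Both fits leave out the third arrays, which had to deepen the differences of MYL4 and TNNT1, as described above. Signal over background limits dim probes, and 25 members with a probe were too dim to test.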
